A study of Mus musculus with 16 samples.

Results

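Transcripts of 9 secreted factors were measured in mouse liver: Fgf21, Gdf15, Angptl4, Angptl6, Angptl8, Lect2, Fetub, Ahsg and Inhbe. They were taken by symbol from the 50559 gene symbols of the deposited table, and all 9 passed the filter on low counts that left 18335 genes for testing. The livers came from male C57BL/6J mice in 4 groups of 4 libraries, between 24317111 and 35820234 expected counts each. The mice were 6 weeks old when the diets began, stayed on them for 10 weeks and were treated during the final 4. The LFD group, whose diet the labels name chow, and the HFD group, on a diet with 60% fat, were injected with a control siRNA against luciferase (10 mg/kg at intervals of 2 weeks) and gavaged with methylcellulose. The HFD + siRNA group was on HFD, and a GalNAc-conjugated siRNA against ketohexokinase (KHK) at 20 mg/kg, which is taken up by hepatocytes, replaced the control siRNA, while methylcellulose was still given. The HFD + Inhib group was on HFD and kept the control siRNA, and its gavage carried the systemic KHK inhibitor PF-06835919 at 15 mg/kg, 2 times daily. Every group therefore carried an siRNA and a gavage. Mice of the study received saline or insulin shortly before tissue collection, and which libraries came from which injection is not given in the sources used here.

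Hepatokines are proteins that hepatocytes release into the blood and that act on other tissues, as hormones act. FGF21 signals through FGF receptors joined to the co-receptor β-Klotho, GDF15 through GFRAL and RET in the hindbrain, and activin E, the dimer of the Inhbe product, through activin-type receptors. Several angiopoietin-like proteins restrain lipoprotein lipase and so decide where circulating triglycerides are taken up, and fetuin-A (Ahsg) and fetuin-B (Fetub) are abundant plasma proteins of the cystatin superfamily. Several of these genes are textbook targets of nutrient sensors, among them PPARα, which is activated by fatty acids, ChREBP, which is activated by sugars, and ATF4, which is induced by amino acid shortage and endoplasmic reticulum stress.

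The promoters of Fgf21, Angptl8 and Inhbe were the ones among the 8 factors searched in which the letters of a C/EBP-ATF response element (CARE), to which ATF4 binds, were found. RefSeq promoter windows on build GRCm38.p6, from 250 bases before the start to 50 after it, matched 8 of the 9 genes, all but Angptl4, in 10 windows. They were searched on both strands for 7 motifs, and the CARE letters TGATGNAAN were held by 3.95% of all 32851 windows. Each stretch below is shown 5′ to 3′ on the gene's strand because it carries the element, which is in capitals.
Fgf21: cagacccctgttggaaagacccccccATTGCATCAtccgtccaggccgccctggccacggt
Angptl8: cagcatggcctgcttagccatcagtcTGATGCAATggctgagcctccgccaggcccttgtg
Inhbe: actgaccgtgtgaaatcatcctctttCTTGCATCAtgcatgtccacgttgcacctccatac
The Fgf21 stretch lies at chr7:45615596-45615656 on the minus strand, and its element starts 140 bases before the gene's start. In Angptl8 (chr9:21835354-21835414, plus strand) the element starts 130 bases before the start. For Inhbe (chr10:127351996-127352056, minus strand) the distance is 182 bases. The element reads on the minus strand relative to Fgf21 and Inhbe, and on the plus strand relative to Angptl8. The E-box CACGTG, held by 7.15% of all windows, was found in Fgf21 and in 1 of 2 Gdf15 windows. TATAAA, held by 13.6%, was found in Fgf21 and Fetub, and a loose nuclear receptor repeat, made of AGGNCA 2 times with 1 base between, was held by 0.381% and found in 1 Gdf15 window. No member's window held the strict form of that repeat, with AGGTCA 2 times and 1 base between, which is contained in the loose form and was held by 0.0396% of all windows. The glucocorticoid element, AGAACA and TGTTCT with 3 bases between (0.00913%), and the sterol-type element TCACNCCAC (1.24%) were not found either. These are letter matches in a short window, and binding was not measured.

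Khk, the gene targeted by the siRNA, was checked first. Its level was 214, 233, 349 and 269 CPM (counts scaled to a common library size with TMM factors) in LFD libraries 1 to 4 and 251, 322, 233 and 251 CPM in HFD libraries. The HFD + siRNA libraries held 11.8, 9.14, 18.1 and 11.5 CPM and the HFD + Inhib libraries 112, 152, 94.6 and 120.5 CPM. Every siRNA library lay below every library of the other groups, as its label says. The fitted change against the HFD group was -4.38 on the log2 scale with siRNA (adjusted p = 1.88e-08, edgeR's quasi-likelihood test) and -1.14 with the inhibitor (adjusted p = 0.000752). Hepatocyte genes dominated the libraries, with albumin (Alb) at 27702 CPM or more in each. LFD replicate 3 stood apart in markers of other tissues. It held 14.2 CPM of the bile duct gene Krt19, against 0.671 to 1.81 CPM in the other LFD libraries, and 6.15 CPM of the pancreas gene Ctrb1, which was at 0.0659 CPM or less there. HFD + Inhib replicate 4 held 8.81 CPM of Krt19 and 1.53 CPM of Ctrb1, and the other libraries of its group at most 0.894 and 0.0707 CPM. Of the 6 pancreas markers, Cela1 was the most abundant, between 4.51 and 28.0 CPM, and Ins2 was at 0 in every library. Without LFD replicate 3, the count of factors called was the same as with all libraries, except 5 in place of 4 in HFD + Inhib vs LFD. Without HFD + Inhib replicate 4 it was 3 in place of 4 there and 4 in place of 5 in HFD + Inhib vs HFD + siRNA.

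The 9 transcripts spanned a wide range of abundance. Per kilobase of mean transcript length (GENCODE M21), Ahsg stood highest in the HFD group, with 4149 CPM per kilobase, followed by Lect2 with 148, Fetub with 114 and Angptl8 with 53.5. Gdf15 (15.9), Inhbe (13.7), Angptl4 (11), Fgf21 (8.02) and Angptl6 (5.89) were lower. In the LFD group Fetub, at 243 CPM per kilobase, stood above Lect2, at 48.0. Fgf21 rested on the fewest counts, between 12 and 392 per library, while Ahsg had at least 68581. In bulk tissue, fewer cells of a type and less RNA per cell cannot be told apart.

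**Figure D1:**
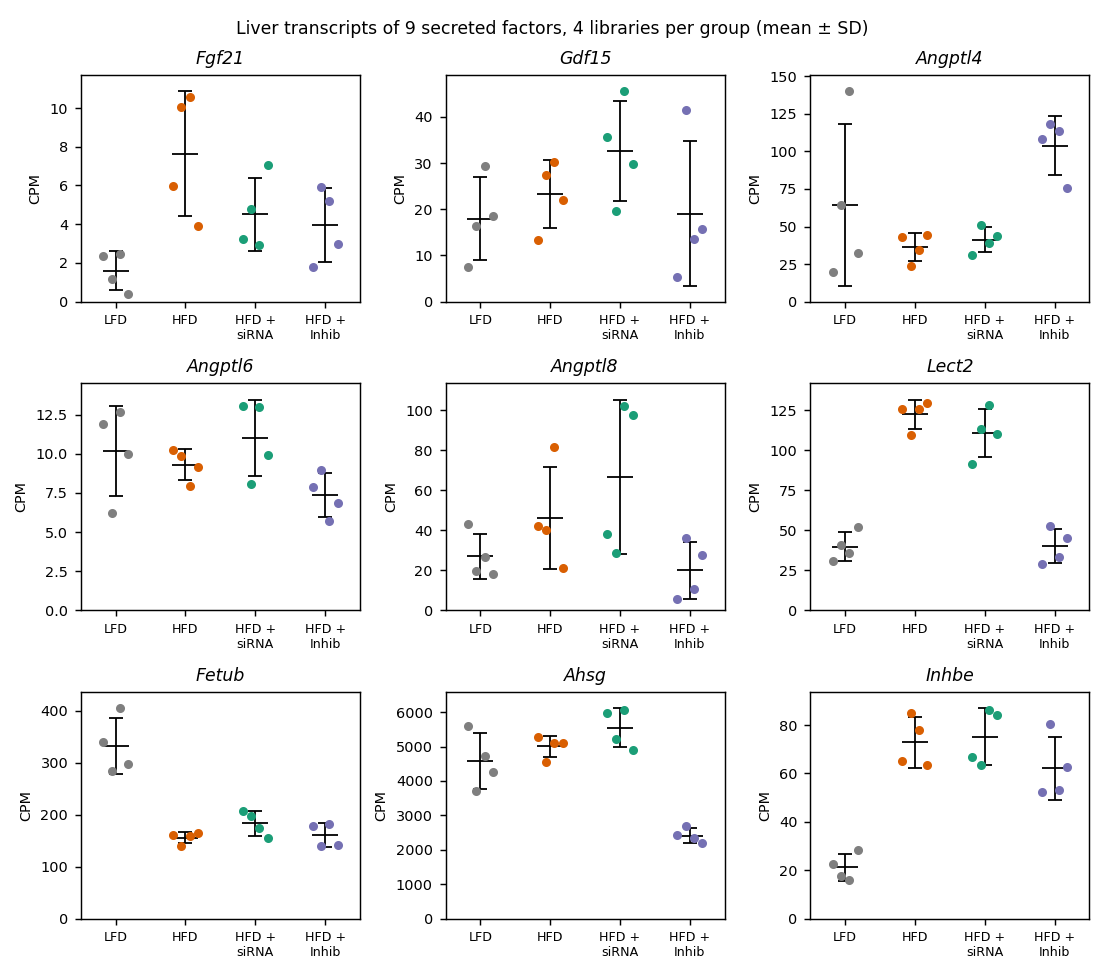
Level of each of the 9 transcripts in CPM (vertical axes, linear and starting at 0) in the 4 libraries of each group; points are libraries and black bars the mean ± SD. Fgf21, Lect2 and Inhbe are higher and Fetub is lower in every HFD library than in any LFD library, and Ahsg and Lect2 are lower in every HFD + Inhib library than in any HFD library.

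Compared with the LFD group, the HFD group had higher Fgf21, Lect2 and Inhbe and lower Fetub. These 4 of 9 factors passed the threshold of adjusted p under 0.05, and 18.4% of all genes tested did. By direction, 3 factors rose and 1 fell, beside 9.58% and 8.8% of all genes. The median change of the 9 was 0.36 on the log2 scale, against -0.01 for all genes.

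Fgf21 encodes the fasting- and stress-induced hormone FGF21. It measured 2.35, 1.18, 2.48 and 0.396 CPM in the LFD libraries and 5.97, 10.1, 10.6 and 3.91 CPM in the HFD libraries. The lowest HFD library thus lay above the highest LFD library, although the levels within each group spread widely. The fitted difference was 4.78-fold (95% interval 2.33 to 9.80, adjusted p = 0.00577).

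Lect2 encodes leukocyte cell-derived chemotaxin 2, a hepatokine linked to insulin resistance in muscle. Its level was 30.6, 40.7, 35.9 and 52.1 CPM in LFD libraries and 126, 109, 126 and 129 CPM in HFD libraries. No library of one group came near the other, and the HFD libraries differed from each other by 1.18 times at most. The difference was 3.08-fold (95% interval 2.36 to 4.01, adjusted p = 5.63e-05).

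Inhbe encodes the inhibin βE subunit, which is made almost solely by hepatocytes. LFD libraries held 22.4, 17.7, 16.2 and 28.5 CPM, and HFD libraries 65.1, 85.0, 78.1 and 63.3 CPM. The groups did not overlap, and the fitted difference was 3.44-fold (95% interval 2.63 to 4.50, adjusted p = 3.00e-05).

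Fetub went the other way. Fetuin-B inhibits the egg protease ovastacin and so keeps the egg coat open to sperm. It measured 340.4, 284, 404 and 298 CPM in LFD libraries and 161, 140.2, 159 and 164 CPM in HFD libraries. All HFD libraries lay within 1.17 times of each other and far below the LFD libraries, and the fitted level was 0.470 times that of the LFD group (95% interval 0.390 to 0.568, adjusted p = 8.25e-05). Ahsg, which encodes the other fetuin, did not pass the test, at 5611, 3718, 4740 and 4250 CPM in LFD libraries and 5284, 4562, 5101 and 5091 CPM in HFD libraries. These ranges overlapped, and the 95% interval of the ratio was 0.908 to 1.32.

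The 3 angiopoietin-like members and Gdf15 did not pass the test for HFD. Angptl4, which encodes an inhibitor of lipoprotein lipase, varied 7.0 times among LFD libraries, at 20, 64.4, 140.0 and 32.5 CPM, whereas HFD libraries held 43.2, 23.9, 34.6 and 44.2 CPM. LFD replicate 3 was the highest, and its removal moved the log2 difference from -0.82 to -0.09. This is the library with the high Krt19 and Ctrb1. It also held 0.478 CPM of the adipocyte gene Adipoq, against 0 to 0.231 CPM in the other LFD libraries. The part of these markers in its Angptl4 level was not tested. Angptl8, whose product takes part in the control of lipoprotein lipase after feeding, measured 43.0, 19.7, 26.7 and 18.1 CPM in LFD libraries and 41.9, 40.1, 81.8 and 21.2 CPM in HFD libraries. Its groups overlapped and the 95% interval of the ratio ran from 0.781 to 3.81. Gdf15, a stress-induced cytokine that lowers food intake, measured 7.59, 16.4, 29.4 and 18.6 CPM in LFD libraries and 13.4, 27.3, 30.2 and 22.0 CPM in HFD libraries. Angptl6, another circulating member of its family, stayed between 6.23 and 12.7 CPM in LFD libraries and between 7.97 and 10.3 CPM in HFD libraries.

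**Figure D2:**
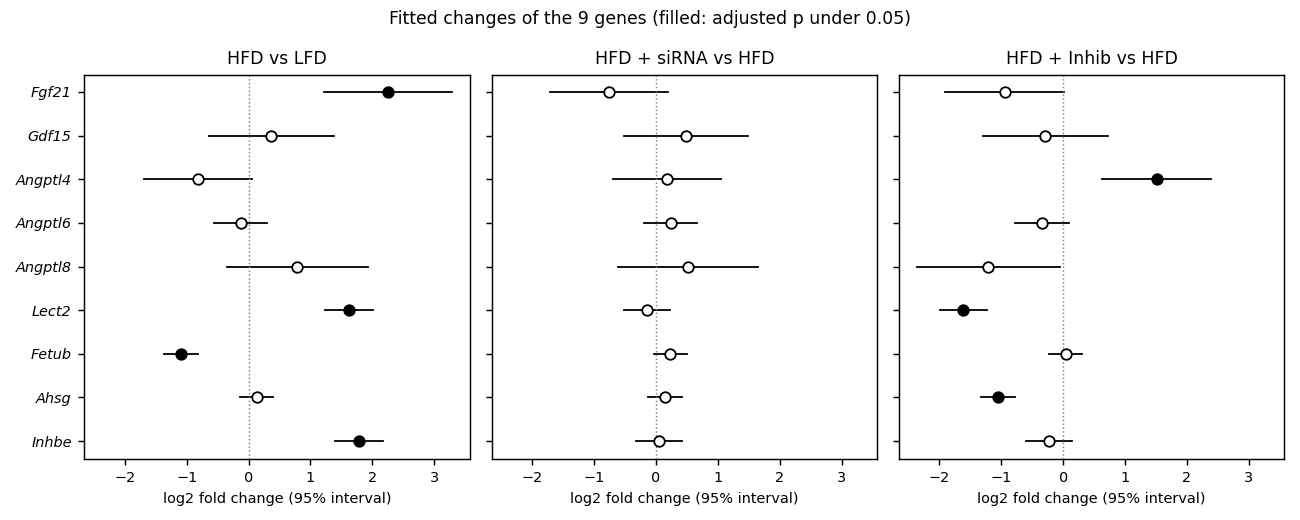
Fitted log2 fold change (horizontal axes) with its 95% interval for each of the 9 genes in 3 comparisons; filled points have an adjusted p under 0.05. In HFD vs LFD 4 points are filled, in HFD + siRNA vs HFD none are, and in HFD + Inhib vs HFD 3 are; the last 2 panels share the HFD libraries.

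Knockdown of KHK in hepatocytes changed none of the 9 factors past the threshold. In HFD + siRNA compared with HFD, 0 of 9 passed in edgeR's quasi-likelihood test and 0 of 9 in DESeq2, and 0 of 9 had an unadjusted p under 0.05, while 11.7% of all genes tested passed (5.2% higher and 6.55% lower). The median change of the 9 was 0.18 against 0.02 for all genes. DESeq2 called 15% of all genes, and 26.9% had an unadjusted p under 0.05. For none of the 9 were the libraries of the groups apart, which they were for 20.6% of all genes.

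Precision differed between the factors. For Ahsg (5965, 5221, 6071 and 4911 CPM with siRNA) the interval of the ratio was narrow, 0.918 to 1.33. Inhbe stood at 66.8, 63.5, 86.2 and 84.3 CPM, overlapping the HFD libraries, with an interval of 0.796 to 1.34. Lect2 stood at 91.2, 114, 128 and 110.1 CPM (0.699 to 1.17). Fetub stood at 208, 196, 174 and 155 CPM (0.975 to 1.42), and 3 of its 4 siRNA libraries were above every HFD library. The remaining 5 intervals were wider. Fgf21, at 3.26, 4.77, 2.93 and 7.06 CPM, had a fitted ratio of 0.591 with an interval of 0.305 to 1.15. Angptl8 split into a low and a high pair, at 38.3, 28.3, 102.0 and 97.5 CPM, and its interval ran from 0.657 to 3.15. Gdf15 held 35.6, 19.6, 45.5 and 29.9 CPM (0.702 to 2.81), Angptl4 31.2, 50.8, 39.2 and 43.9 CPM (0.620 to 2.07) and Angptl6 between 8.05 and 13.1 CPM (0.877 to 1.59).

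Compared with the LFD group, the HFD + siRNA libraries kept 3 of the 4 calls made for HFD, where 8.63% of all genes passed (4.75% higher, 3.88% lower). The median change was 0.85, against -0.01 for all genes. Lect2 was 2.78-fold (adjusted p = 0.000113) and Inhbe 3.55-fold (adjusted p = 2.47e-05) higher than in the LFD group. Fetub was at 0.553 times its LFD level (adjusted p = 0.000705). Fgf21 was at 2.82-fold with no overlap between the groups, and did not pass the adjusted threshold (adjusted p = 0.0701). The LFD libraries are shared with the HFD comparison, and the values are given side by side.

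The KHK inhibitor was followed by a different profile. In HFD + Inhib compared with HFD, Angptl4 was higher and Lect2 and Ahsg were lower, which made 3 of 9 called beside 18.2% of all genes (9.8% higher, 8.42% lower). The median change of the 9 was -0.34, against -0.00 for all genes.

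Angptl4 measured 108, 118, 113 and 75.3 CPM with the inhibitor. Every one of these libraries lay above every HFD and every siRNA library, and LFD replicate 3 alone among the other groups exceeded them. Against HFD the fitted change was 2.85-fold (95% interval 1.55 to 5.26, adjusted p = 0.0182), and the adjusted p was 0.0605 without HFD replicate 2, the lowest of its group. The log2 difference was at least 1.35 in every fit without 1 library, against 1.51 with all libraries. HFD replicate 2 stood apart in markers of other cells. It held 2.13 CPM of the T cell gene Cd8a, against 0.152 to 0.235 CPM in the other HFD libraries. It also held 0.539 CPM of the adipocyte gene Lep, which was at 0 in the other 15 libraries. Their part in its Angptl4 level was not tested. Without this library 2 factors in place of 3 were called in HFD + Inhib vs HFD and 3 in place of 4 in HFD + Inhib vs LFD, and the counts of the other 4 comparisons were the same. Against LFD it was 1.62-fold and did not pass (adjusted p = 0.198). Without LFD replicate 3 the log2 difference from LFD was 1.42 (adjusted p = 0.00355).

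Lect2 measured 29.1, 52.7, 33.5 and 44.9 CPM with the inhibitor, all below the lowest HFD library. The fitted level was 0.327 times that of HFD (95% interval 0.251 to 0.426, adjusted p = 1.24e-05). It stood beside the LFD libraries, with a ratio of 1.01 to LFD and an interval of 0.776 to 1.30. In the order of the group means, HFD and HFD + siRNA came first and did not differ beyond their spread, and HFD + Inhib and LFD followed and did not either.

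Ahsg measured 2423, 2692, 2340 and 2192 CPM with the inhibitor, below every library of the other 3 groups. The fitted level was 0.481 times that of HFD (95% interval 0.399 to 0.581, adjusted p = 3.15e-05) and 0.527 times that of LFD (adjusted p = 5.31e-05). Fetuin-A, the product, binds calcium phosphate in plasma and can restrain the insulin receptor. Fetub, its relative, held 178, 141, 182 and 141 CPM, which overlapped the HFD libraries, and its ratio to HFD had an interval of 0.853 to 1.24.

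Genes that mark hepatocytes were counted beside Ahsg. Of 7 such markers, 3 fell with the inhibitor against HFD and none rose, beside 8.42% of all genes that fell, with a median change of -0.38. These were Alb, which encodes albumin, at 0.587 times (adjusted p = 0.000761), Trf, which encodes transferrin, at 0.558 times (adjusted p = 0.00142), and Ttr, which encodes transthyretin, at 0.524 times (adjusted p = 5.55e-05). The summed level of the 7 markers was 74721 to 86869 CPM in HFD libraries and 52623 to 55244 CPM in HFD + Inhib libraries, and albumin was the most abundant in all. Apob, which encodes the main protein of VLDL, had a log2 difference of -0.01. Kng1, which encodes kininogen, and Rbp4, which encodes the plasma carrier of retinol, had log2 differences of -0.04 and -0.10, and neither passed. These genes are not among the 7 markers but come from other lists given below. On the list of Rbp4, 3 of 14 tested genes fell and 1 rose. On that of Kng1, 2 of 5 tested genes rose and none fell. Against HFD + siRNA 5 of the 7 markers were lower with the inhibitor (median -0.51), and against LFD 6 of 7 were (median -0.77), the comparisons in which Ahsg was also lower. In HFD against LFD 1 of 7 was lower (Apoa1). The part of this shift in the change of Ahsg was not tested.

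**Figure D3:**
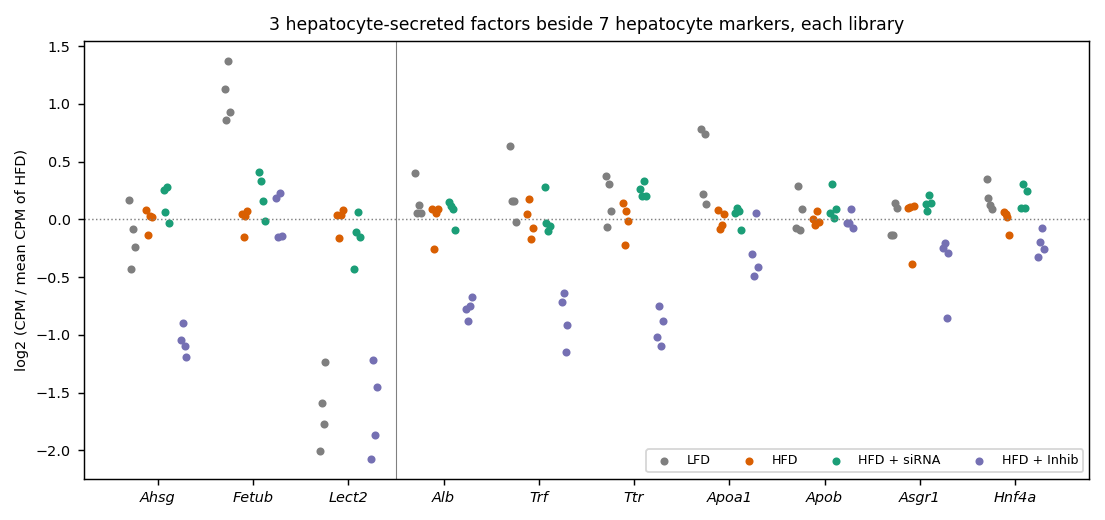
Each library's level relative to the mean of the HFD group, on a log2 scale (vertical axis), for Ahsg, Fetub and Lect2 on the left and 7 hepatocyte markers on the right, colored by group. The HFD + Inhib points of Ahsg lie below 0 together with those of Alb, Trf and Ttr, while those of Apob and Fetub lie around 0. The HFD + Inhib points of Hnf4a and Asgr1, which did not pass, also lie below 0, and those of Apoa1 do except in replicate 3.

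Inhbe did not pass against HFD with the inhibitor. It measured 52.4, 80.4, 53.0 and 62.5 CPM, and 3 of these 4 libraries lay below every HFD library, of which the lowest held 63.3 CPM. The interval of the ratio to HFD was 0.657 to 1.10. Against LFD it was 2.93-fold higher (adjusted p = 1.09e-05). Among the 9 factors, Inhbe and Fetub were the ones called against LFD in each of the 3 HFD-fed groups. Fetub was at 0.484 times its LFD level with the inhibitor (adjusted p = 1.60e-05).

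Fgf21 measured 1.80, 5.91, 5.21 and 2.97 CPM with the inhibitor. These values lay between the LFD and HFD libraries and overlapped both. The ratio to HFD was 0.518 (95% interval 0.266 to 1.01, adjusted p = 0.169), and that to LFD was 2.48 (adjusted p = 0.0461). The latter call was lost in 9 of the 16 fits that left out 1 library, with LFD replicate 2 or 4, HFD replicate 1 or 2, HFD + siRNA replicate 1 or 2, or HFD + Inhib replicate 2, 3 or 4 removed (adjusted p up to 0.128). In the order HFD, HFD + siRNA, HFD + Inhib, LFD no neighbors differed past the threshold except the last pair. Angptl8 held 5.41, 36.2, 10.7 and 27.4 CPM, with a ratio of 0.431 to HFD (95% interval 0.193 to 0.960) that did not pass after adjustment (adjusted p = 0.141). Gdf15 ranged from 5.37 to 41.5 CPM, 7.73 times, and the range held all HFD libraries. Angptl6 held 7.91, 8.98, 5.73 and 6.87 CPM (ratio to HFD 0.790, adjusted p = 0.282). Its log2 difference from LFD was -0.47 (adjusted p = 0.0831), and -0.65 (adjusted p = 0.00966) without LFD replicate 2. An alternative that kept all libraries moved this difference to -0.006 (adjusted p up to 0.975).

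In all, 4 of 9 factors differed between HFD + Inhib and LFD, 2 higher and 2 lower, where 36.9% of all genes passed (18.8% higher, 18.2% lower). The share of factors was near that of all genes, and the median change of the 9 was 0.01 against -0.02 for all genes.

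The treatments were also compared with each other, which tests whether knockdown and inhibition left different levels. Of the 9 factors, 5 differed between HFD + Inhib and HFD + siRNA, 1 higher and 4 lower with the inhibitor, beside 33.8% of all genes (17.3% higher, 16.6% lower). The median change of the 9 was -0.58, against -0.04 for all genes. Angptl4 was 2.52-fold higher with the inhibitor (adjusted p = 0.0207, and 0.0574 without HFD + siRNA replicate 1). Its log2 difference was at least 1.23 in every fit without 1 library, against 1.33 with all libraries. Lect2 was at 0.362 times (adjusted p = 1.85e-05) and Ahsg at 0.435 times (adjusted p = 5.07e-06) the siRNA level, and the libraries of these 3 genes did not overlap between the treatments, as was the case for 32.4% of all genes. Angptl8 was at 0.299 times (adjusted p = 0.0227) and Angptl6 at 0.668 times (adjusted p = 0.0376), both with overlapping libraries. The Angptl8 call was lost in 4 of the 16 fits without 1 library (HFD + siRNA replicate 3 or 4, HFD + Inhib replicate 1 or 3, adjusted p up to 0.0746). The Angptl6 call was lost in 8 of 16, with LFD replicate 4, HFD replicate 4, HFD + siRNA replicate 1, 3 or 4, or HFD + Inhib replicate 1, 3 or 4 removed (adjusted p up to 0.118). Gdf15, at a log2 difference of -0.78, did not pass, and did without HFD + Inhib replicate 2 (-1.48, adjusted p = 0.0164). Angptl8 and Angptl6 were the GC-rich transcripts among the called ones, at 60.6% and 63.1%, and fold changes across 8342 well expressed genes ran with GC content (Spearman's rho -0.53, a description across genes). The trend was of like size in HFD vs LFD (-0.52), HFD + Inhib vs LFD (-0.56) and HFD + siRNA vs HFD (0.50), and weaker in HFD + Inhib vs HFD (-0.27) and HFD + siRNA vs LFD (-0.08). With offsets for GC content and length, the log2 difference of Angptl8 was -1.41 (adjusted p = 0.0541), against -1.74 without them, and that of Angptl6 was -0.23 (adjusted p = 0.120), against -0.58. Neither passed. Angptl6 shares 16.8% of its exonic bases with A230050P20Rik on the opposite strand, and since the sources used here do not say whether counting used strand, reads of the shared stretch cannot be assigned to one of these genes. Angptl8 lies within Dock6 on the opposite strand and shares 0 exonic bases with it.

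Angptl4, Fgf21 and Angptl8 were next set beside target genes of the nutrient sensors. The target lists and the lists below were chosen with earlier results of these data known, and are given as counts. Of all genes tested, 18.4% passed in HFD vs LFD, 11.7% in HFD + siRNA vs HFD and 18.2% in HFD + Inhib vs HFD. Of 18 PPARα targets, 17 rose with the inhibitor against HFD and the last, Cpt1a, had a log2 difference of 0.21, and the median change was 2.29. Fabp1, which binds fatty acids in the cytosol, rose 2.73-fold (adjusted p = 0.000199). Angptl4, at 2.85-fold, rose with them, whereas Fgf21, which is also a textbook PPARα target, had a ratio of 0.518 that did not pass. With siRNA 1 of the 18 fell and none rose, with a median of -0.04.

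The ChREBP list moved with the siRNA, where none of the 9 factors passed. Of 16 ChREBP targets, 9 fell in HFD + siRNA compared with HFD and none rose, with a median of -1.04. Scd1, the stearoyl-CoA desaturase, was at 0.249 times (adjusted p = 0.000432) and Fasn, the fatty acid synthase, at 0.312 times (adjusted p = 0.00109). With the inhibitor 4 rose and 3 fell. For Fgf21 and Angptl8, both regarded as ChREBP-responsive, neither treatment gave a call against HFD.

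Of the ATF4 and CHOP list, 17 of 18 genes were tested. With siRNA 2 rose, namely Cth (1.87-fold, adjusted p = 0.00846), an enzyme of cysteine synthesis, and Atf5 (1.70-fold, adjusted p = 0.0207), a stress-responsive transcription factor, and with the inhibitor 2 rose and 2 fell. Against LFD, HFD brought 2 rises and 2 falls. These counts of calls were near the shares of all genes that passed, 11.7% with siRNA, 18.2% with the inhibitor and 18.4% for HFD. Of the 3 factors whose promoters hold the CARE letters shown above, Fgf21 and Inhbe rose in the HFD group and Angptl8 did not pass (log2 difference 0.79, adjusted p = 0.334), and the list's median there was -0.10. Atf4 itself, at 72.5 ± 12.6 CPM in LFD (mean ± SD, n = 4) and 52.8 ± 9.46 CPM in HFD, did not pass. Of 19 transcription factor genes, 3 rose and 1 fell in HFD against LFD, and Ppara was among those that rose (1.75-fold, adjusted p = 0.000757). None of the 19 passed in HFD + siRNA against HFD, and 1 rose and 1 fell in HFD + Inhib against HFD.

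**Figure D4:**
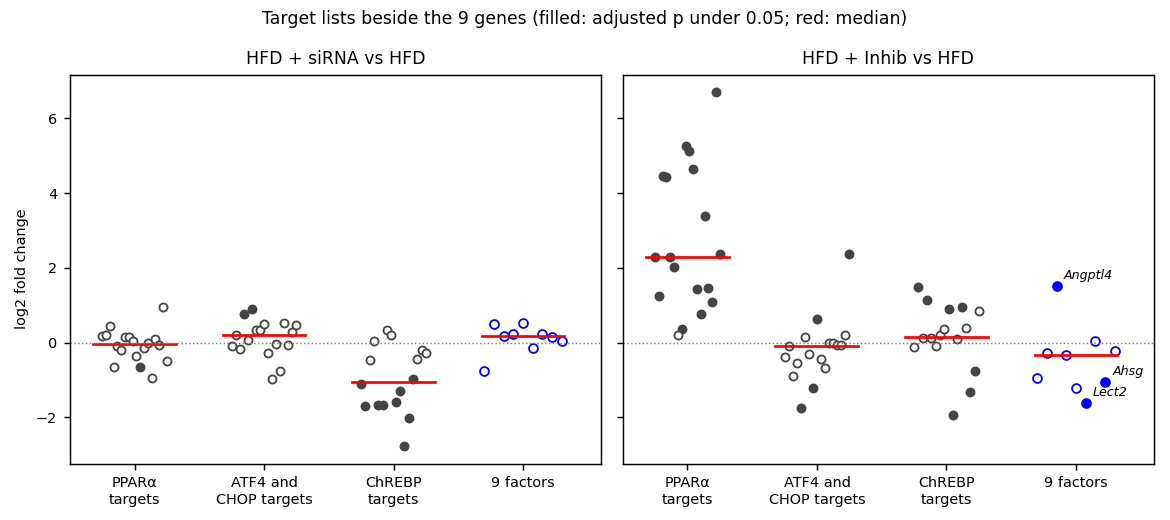
Log2 fold change (vertical axis) against HFD of every tested gene of 3 target lists and of the 9 secreted factors (blue), with siRNA on the left and the inhibitor on the right; filled points have an adjusted p under 0.05 and red lines are medians. PPARα targets lie high with the inhibitor (median 2.29), ChREBP targets lie low with siRNA (median -1.04), and of the 9 factors Angptl4 alone is filled above 0.

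Genes of lipases and lipase handling, some of which encode enzymes that angiopoietin-like proteins act on, were counted as well. Of 6 such genes, 3 rose with the inhibitor against HFD, and the hepatic lipase gene Lipc had a log2 difference of -0.12 that did not pass. Lpl, which encodes lipoprotein lipase, measured 19.4, 21.5, 21.5 and 21.4 CPM in HFD libraries and 213, 124, 248 and 170.3 CPM in HFD + Inhib libraries. The groups stood far apart, 9.02-fold (adjusted p = 3.44e-06). Lipg, the endothelial lipase gene, rose 2.03-fold (adjusted p = 0.0130) and Pnpla2, the adipose triglyceride lipase gene, 2.12-fold (adjusted p = 0.000237). Lipg had already been 2.90-fold higher in HFD than in LFD (adjusted p = 0.00186). With siRNA 1 gene passed against HFD, Lmf1, a chaperone of lipases, with a log2 difference of 0.64.

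Among receptor genes for FGF21, the co-receptor gene Klb was steady, between 47.6 and 67.4 CPM over all 16 libraries. Of 5 tested genes of the list, 3 fell with the inhibitor against HFD. Fgfr4 was at 0.580 times (adjusted p = 0.00795), Fgfr3 at 0.428 times (adjusted p = 8.30e-05) and Fgfr1, the main partner of β-Klotho for FGF21 in adipose tissue, at 0.612 times (adjusted p = 0.0425). Fgfr1 was low throughout, at 4.99 ± 1.14 CPM in HFD and 3.07 ± 0.529 CPM with the inhibitor, and its groups overlapped. None of the list passed with siRNA against HFD. Of the GDF15 receptor genes, Gfral was at 0 in all libraries and Ret was too low to test.

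The subunit genes related to Inhbe had other patterns. Inhbc, which encodes the inhibin βC subunit and is also a hepatocyte gene, rose from 59.8, 63.4, 64.0 and 47.0 CPM in HFD libraries to 93.6, 100.4, 78.5 and 105 CPM with siRNA, and fell to 40.1, 34.1, 31.9 and 30.1 CPM with the inhibitor. The 3 groups were apart in every library. The fitted changes were 1.61-fold (adjusted p = 0.00492) and 0.581 times (adjusted p = 0.000812). Inhba, the subunit of activin A, fell with both treatments, to 0.448 times with siRNA (adjusted p = 0.00739) and to 0.235 times with the inhibitor (adjusted p = 3.26e-05). Of 7 tested activin receptor and inhibitor genes, 3 fell with the inhibitor against HFD (Tgfbr3, Acvr1 and Acvr1b) and 1 with siRNA (Acvr2a, at 0.762 times). In HFD against LFD 2 rose, Acvr2a (1.34-fold, adjusted p = 0.0106) and Acvr1b (1.31-fold, adjusted p = 0.0398), and 1 fell, Acvr2b, to 0.538 times (adjusted p = 0.0156).

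**Figure D5:**
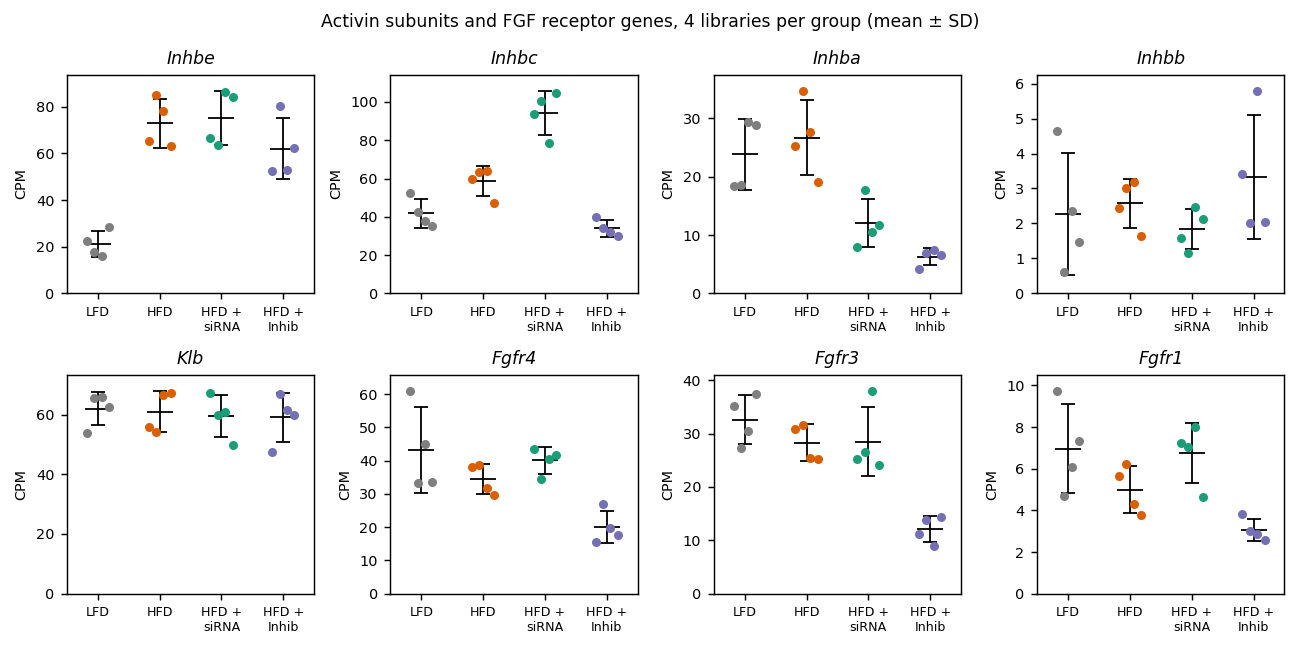
Level in CPM (vertical axes, linear from 0) of 4 activin subunit genes and 4 FGF receptor and co-receptor genes in the 4 libraries of each group, with the mean ± SD as black bars. Inhbc is higher in every siRNA library than in any other library, Inhbe overlaps between the HFD and siRNA groups, Inhba is lowest with the inhibitor, and Fgfr4 and Fgfr3 are lower in every HFD + Inhib library than in any other library while Klb is level.

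Other hepatokines and relatives of the fetuins moved in both directions. Of 14 tested hepatokine genes outside the 9, 6 passed in HFD against LFD (3 higher, 3 lower), 4 in HFD + siRNA against HFD (1 higher, 3 lower) and 4 in HFD + Inhib against HFD (1 higher, 3 lower). Selenop, the selenoprotein that carries selenium in plasma, was the most abundant, and it rose 1.45-fold in HFD against LFD (adjusted p = 0.00483) and was at 0.676 times its HFD level with siRNA (adjusted p = 0.00519). Of 5 tested relatives of Ahsg and Fetub in the cystatin superfamily, 2 rose with the inhibitor against HFD, Cst3 and Cstb, and none fell, while Kng1, the kininogen gene, had a log2 difference of -0.04. Kng1 fell with Fetub in HFD against LFD, to 0.721 times (adjusted p = 0.00690).

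For each factor, the genes with the most similar log2 CPM over the 16 libraries were listed, as a description in which the group means carry much of the likeness. Lect2 was closest to Slc1a2 (Pearson's r = 0.97), Apol7a and Akr1c20. Ahsg was closest to Habp2 (r = 0.98), Enho and Ttr, Inhbe to Bdh1 (r = 0.96), BC049987 and Nt5e, and Fetub to Rpsa (r = 0.93), Ces2a and Cyp2f2. Angptl4 was closest to Txnip (r = 0.91), Nlrp12 and Gm46408, and Angptl6 to Cldn3 (r = 0.95), Mfsd3 and Gm13889. Likeness was lower for Fgf21 (Plpp5, r = 0.84, Smoc2 and Napepld), Gdf15 (Jun, r = 0.82, and Zfp36) and Angptl8 (Ankrd50, r = 0.82, Cyb561a3 and Hes1). After group means were subtracted, Slc1a2 was still the closest to Lect2 (r = 0.92), and Zfp36 was still among the closest to Gdf15. The other 7 factors kept none of their 3. Within the 9, Inhbe and Fetub ran opposite (r = -0.93, and -0.69 after group means were subtracted).

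Markers of other cell types were counted in the same comparisons. Of all genes tested, 33.8% passed in HFD + Inhib vs HFD + siRNA, 36.9% in HFD + Inhib vs LFD and 8.63% in HFD + siRNA vs LFD. The other shares are given with the target lists. None of 7 macrophage and none of 7 endothelial markers passed in HFD against LFD or in HFD + siRNA against HFD. In HFD against LFD, 1 of 7 stellate cell, 1 of 6 lymphocyte and 1 of 5 cholangiocyte markers rose. With the inhibitor against HFD, 1 of 7 macrophage markers fell (Clec4f, the most abundant), 2 of 7 stellate cell markers fell, 1 of 7 endothelial markers rose and 3 of 6 tested lymphocyte markers fell. The 6 adipocyte markers summed to 3.03 to 5.96 CPM in HFD libraries and 21.9 to 46.2 CPM in HFD + Inhib libraries, through Cidea and Adrb3. Adipoq, which defines adipocytes, stayed at 0.257 CPM or less in all HFD and HFD + Inhib libraries, and Lep was at 0 in every library of the series but HFD replicate 2. Against HFD + siRNA, 4 of 7 macrophage, 2 of 7 stellate cell and 1 of 6 lymphocyte markers were lower with the inhibitor, and of the endothelial markers 1 of 7 was higher and 1 lower. Against LFD, 2 of 7 macrophage, 2 of 7 stellate cell, 3 of 7 endothelial and 2 of 6 lymphocyte markers were lower with the inhibitor and 1 endothelial marker was higher, and with siRNA 1 macrophage and 1 stellate cell marker were higher. In HFD against LFD, Cidea was higher and Adrb3 lower. None of 5 cholangiocyte markers passed with either treatment against HFD. The single pancreas marker tested, Cela1, rose in HFD against LFD (1.58-fold, adjusted p = 0.0185) and in HFD + siRNA against HFD (1.57-fold, adjusted p = 0.0256), and fell with the inhibitor to 0.337 times its HFD level (adjusted p = 2.37e-05), and its mean was 5.24 CPM there. The part of these marker differences in the changes of the 9 factors was not tested.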

How the data were processed

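Liver RNA libraries, 16 in all and 4 per group, were analysed and grouped by the deposited labels. The authors deposited expected counts per gene symbol, without scaling between libraries. The labels name STAR, RSEM and the build mm39 without versions. The paper's methods name HTG EdgeSeq, a probe assay, so which assay made the table is unclear, and strandedness and annotation are not given in the sources used here. Of the values, 15.1% were not whole numbers, and they were rounded. Library totals ranged from 24317111 to 35820234 (median 29570114). No per-sample column was left unmapped.

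Of 33460 genes with any count, 18335 passed edgeR's filterByExpr at a minimum count of 10 and a minimum total of 15. TMM factors scaled the libraries, and all 6 comparisons were tested in one fit of the 16 libraries with edgeR's quasi-likelihood test and Benjamini-Hochberg adjustment over all genes tested (threshold 0.05). The labels do not say that each library came from a separate mouse, so p-values measure only the spread between these libraries, which may be technical. Intervals are 95%. All 9 factors, Khk, the 3 most abundant genes of each list and genes of ligand and receptor lists could be named, as could the 3 genes most like each factor in log2 CPM (prior count 2, average at least 1). Cpt1a, Apob, Cst3, Cstb, Cela1, Krt19, Ctrb1, Apoa1, Cidea, Adrb3, Adipoq, Lep, Cd8a, Ins2, Pnlip, Atf4, Hnf4a and Asgr1 were named with their values known. The members, lists and tests were chosen with earlier results of these data known. Transcript lengths and GC content came from GENCODE M21 and promoter windows from RefSeq, both on GRCm38, so no positions are given in the build of the counts. R 4.3.3, edgeR 4.0.16, limma 3.58.1 and DESeq2 1.42.0 were used, and the fits were tested on simulated data. Alternatives were DESeq2, its size factors, other filters, 2 groups only, a replicate block, GC and length offsets, each library left out, and an adjusted p under 0.01. Some results of single genes that the rule would name are not reported here.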

Additional observations from a re-analysis of the deposited data

How the results depend on the processing

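The calls for HFD vs LFD (4), HFD + siRNA vs HFD (0) and HFD + siRNA vs LFD (3) had the same count in every alternative. Without 1 library, 2 to 3 factors were called in HFD + Inhib vs HFD, 3 to 5 in HFD + Inhib vs LFD and 3 to 6 in HFD + Inhib vs HFD + siRNA, where 5 were called with all libraries. In that last comparison 3 were called with GC content and length offsets, with and without the replicate block, and 2 at an adjusted p under 0.01.

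Of 432 fold changes under the alternatives other than leaving out a library, 419 kept direction and side of the threshold, 7 lost the call and 6 changed sign, all 6 between small values that were never called. With GC content and length offsets, and with these plus the replicate block, Angptl6 in HFD vs LFD went from -0.13 to 0.18 and 0.18, Inhbe in HFD + siRNA vs HFD from 0.045 to -0.018 and -0.021, and Lect2 in HFD + Inhib vs LFD from 0.01 to -0.18 and -0.18. Of 864 fold changes without 1 library, 820 kept both, 23 lost the call, 3 gained one and 18 changed sign. The sign changes were of Inhbe in HFD + siRNA vs HFD (-0.043 to 0.13), of Gdf15 (-1.01 to 0.016) and Fetub (-0.027 to 0.098) in HFD + Inhib vs HFD, of Fgf21 in HFD + Inhib vs HFD + siRNA (-0.43 to 0.13), of Angptl4 (-0.95 to 0.075) and Angptl6 (-0.082 to 0.22) in HFD + siRNA vs LFD, and of Gdf15 (-0.64 to 0.42) and Lect2 (-0.15 to 0.17) in HFD + Inhib vs LFD. The cause was not tested.

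Deviations from group means correlated weakly between libraries of different groups with the same replicate number (median 0.07, maximum 0.34, 6 of 24 pairs over 0.1). For other numbers the median was -0.02, the maximum 0.19, and 12 of 72 pairs were over 0.1. Same-number pairs were thus somewhat higher, and whether the numbers pair the libraries was not tested. With the replicate block, Angptl6 in HFD + Inhib vs HFD + siRNA (-0.56, adjusted p = 0.0508) and Fgf21 in HFD + Inhib vs LFD (1.27, adjusted p = 0.0596) did not pass, and no other call changed. Fgf21 had the fewest counts, 12 to 392 per library, and the part of counting error in its intervals was not tested.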
